A study of Mus musculus with 8 samples.

Results

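Tubulin isotypes are the closely related proteins, each from its own gene, that pair as alpha and beta subunits to build microtubules. The 10 isotypes described here are the alpha-tubulins Tuba1a, Tuba1b, Tuba1c and Tuba4a and the beta-tubulins Tubb2a, Tubb2b, Tubb3, Tubb4a, Tubb5 and Tubb6. They were chosen by symbol, through the RefSeq accession of each probe, and not by their values. All 10 were on the array, with 12 probes among 39429 gene probes (32524 genes or accessions in all), and all 12 probes were tested.

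The samples were total RNA from ICR mice at embryonic day 16, with no genotype or treatment given. Manual dissection gave 2 tissues: the germinal layers where progenitors divide, that is, the ventricular zone with the subventricular zone (V/SVZ), and the cortical plate (CP), where newborn neurons settle. Each tissue had 4 samples, each on its own 1-colour Agilent array. Nothing in the labels ties the samples to separate mice. The p-values therefore describe sample-to-sample spread only, and that spread may be technical.

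Microtubules form the mitotic spindle of dividing progenitors and the tracks and struts of migrating neurons and growing axons. Mutations in TUBA1A, TUBB2B, TUBB3 and TUBB cause malformations of the human cortex, and Tubb3 is widely used as a marker of postmitotic neurons. Isotypes differ mostly in their C-terminal tails, where enzymes add or remove tyrosine and glutamate.

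The tissue labels fitted their markers on the scanner arrays. Sox2, a factor of neural stem cells, was 10-fold higher in V/SVZ, and Eomes, which marks intermediate progenitors, was 336-fold higher. Pax6, a radial glia factor, was at least 105-fold higher in V/SVZ, since no CP array had it well above background. Bcl11b, Tbr1 and Map2, genes of postmitotic neurons, were 6.91-fold, 2.89-fold and 2.99-fold higher in CP. In the authors' deposited table of log2 values each column instead tracked the array with its number from the opposite tissue. For this comparison the mean of each probe over all arrays was subtracted from the scanner values. The correlation across 17163 gene probes, which are not independent replicates, was r = 0.995 with the tracked array, against -0.96 to -0.971 with its own. The directions below are those of the scanner files and so oppose the column names of that table. Slide 1 carried the V/SVZ arrays and slide 2 the CP arrays, and the slides had different scan dates or times. Tissue, slide and scan therefore cannot be told apart. The 7 spike-in RNAs well above background differed between the slides by -0.05 to 0.16 on the log2 scale, less than any of the 12 tubulin probes. They were averaged over their spots and do not show shifts at single spots, such as the spatial corrections given below for Tuba1b and Tubb2b. The scanner's spatial correction also differed between the tissues for other isotypes. For Tuba1a its factor was 1.1 to 1.14 in V/SVZ and 1 to 1.03 in CP. It was 1.05 to 1.08 and 1.15 to 1.17 for Tubb3, and 1.08 to 1.12 and 1.02 to 1.04 for Tuba1c. In the normexp values, which do not use it, these 3 isotypes differed by -0.57, -1.36 and 5.28. Fewer cells of a type and less RNA per cell cannot be told apart in these bulk samples.

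Values below are log2 of the scanner's processed signal minus the 75th percentile of that signal on the same array, and a difference is V/SVZ minus CP. All 12 tubulin probes differed between the tissues, as did 79.7% of all tested probes. By gene, 7 of 10 isotypes were higher in CP and 3 (Tuba1c, Tubb6 and Tuba1b) higher in V/SVZ by their probe with the highest mean signal, in limma's test with Benjamini-Hochberg adjustment over all 23860 tested probes at a threshold of 0.05. The place of Tuba1b among the 3 rests on that choice of probe, since its other probe was higher in CP. The count is to be read against the whole array, on which 79.5% of 19232 genes passed the same test, 44.6% as higher in CP and 35.0% as higher in V/SVZ. Of the probes, 9 of 12 were higher in CP, against 44.4% of all tested probes, and 3 higher in V/SVZ, against 35.2%. The 4 arrays of one tissue lay wholly above those of the other for all 12 probes, as they did for 75.5% of all tested probes. The median difference of the 10 isotypes was -0.53, beside -0.09 for all genes. By size the isotypes separated into Tuba1c alone at 43.6-fold, 3 beta-tubulins at least 2-fold higher in CP, and 6 isotypes that differed by less than 2-fold. For comparison, calls of 2-fold or more towards V/SVZ made up 13.7% of all genes, and such calls towards CP 16.5%.

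**Figure D1:**
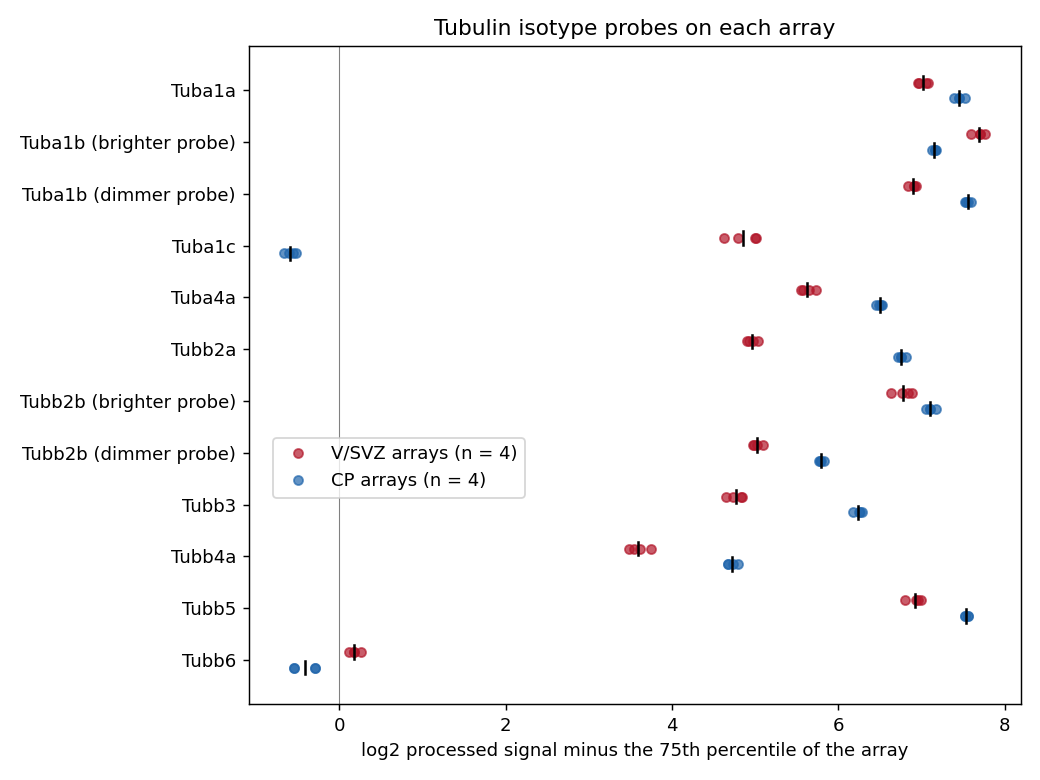
Log2 processed signal minus the 75th percentile of the array (horizontal axis) for the 12 tubulin probes, with 1 point per array, 4 V/SVZ arrays in red and 4 CP arrays in blue, and a black bar at each mean. No probe has overlapping tissues; Tuba1c has by far the widest gap, from 4.85 in V/SVZ to -0.59 in CP, and Tuba1b has 1 probe in each direction.

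Tuba1c, an alpha-tubulin, had the largest difference of the 10 isotypes, towards V/SVZ. Its log2 values were 5.01, 5, 4.63 and 4.79 on V/SVZ arrays 1 to 4 and -0.61, -0.67, -0.52 and -0.56 on CP arrays 1 to 4. All V/SVZ arrays were thus far above all CP arrays, with an SD of 0.18 in V/SVZ and 0.07 in CP (n = 4 each). In unscaled signal this was 63324 to 81851 intensity units in V/SVZ against 1350 to 1510 in CP, where the probe was still well above background on all 4 arrays. The log2 difference was 5.45 ± 0.09 SE (limma, n = 4 per tissue, adjusted p = 9.96e-10), which is 43.6-fold, and 99.0% of tested probes differed by less. Outside the tubulins, the genes whose pattern over the 8 arrays came closest were Ect2, a regulator of cytokinesis, Aspm, a spindle pole protein, and Cdk1, the kinase of mitotic entry. Their Euclidean distances from Tuba1c, after subtracting each gene's mean, were 0.19, 0.24 and 0.25 log2 units, and their own differences were 5.38, 5.49 and 5.38. With 2 tissues and a small spread within each, such a distance mostly reflects the size of the tissue difference, here and for Tubb2a below. The radial glia marker Fabp7 (5.38) and the intermediate progenitor marker Neurog2 (5.58) had differences of like size. Markers of mitosis, a list that itself includes Cdk1, were higher in V/SVZ for 4 of 4 genes, beside 35.0% of all genes. Their summed level was 35.2 to 39.0 in V/SVZ and 0.807 to 1.02 in CP, in multiples of the 75th percentile. Radial glia markers (8 of 8 higher in V/SVZ) had a summed level of 185 to 199 in V/SVZ and 10.6 to 12 in CP. Intermediate progenitor markers (4 of 4 higher in V/SVZ) had 82.8 to 97.1 and 9.08 to 10.4. The part of these lists in the Tuba1c difference was not tested.

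Tubb2a, Tubb3 and Tubb4a were the 3 of the 7 isotypes higher in CP that differed by at least 2-fold. Tubb2a, a beta-tubulin abundant in brain, read 4.93, 5.04, 4.98 and 4.90 on the V/SVZ arrays and 6.75, 6.82, 6.72 and 6.75 on the CP arrays. Its groups stood 1.80 apart on the log2 scale while the arrays of a tissue varied with an SD of 0.06 (V/SVZ, n = 4) and 0.04 (CP, n = 4), and it was 3.48-fold higher in CP (limma adjusted p = 5.56e-09). Tubb3, the neuronal beta-tubulin, read 4.74, 4.84, 4.65 and 4.83 in V/SVZ and 6.18, 6.26, 6.25 and 6.28 in CP. Every CP array exceeded every V/SVZ array, and the difference of -1.48 ± 0.05 SE made Tubb3 2.79-fold higher in CP (limma adjusted p = 4.36e-08). Its V/SVZ signal, 64196 to 73453 intensity units, was well above background on all 4 arrays, so transcripts of this neuronal marker were also detected in the dissected germinal zones. Tubb4a, a beta-tubulin found mainly in the nervous system, read 3.54, 3.62, 3.48 and 3.75 in V/SVZ and 4.74, 4.68, 4.79 and 4.68 in CP. The tissues again did not overlap, and Tubb4a was 2.18-fold higher in CP (difference -1.12 ± 0.06 SE, limma adjusted p = 7.39e-07). Among the genes nearest to Tubb2a in pattern were the kinase gene Taok3 and the neuronal membrane glycoprotein gene Gpm6a, at distances of 0.12 and 0.13 log2 units over the 8 arrays and with differences of -1.82 and -1.84. Markers of postmitotic projection neurons were higher in CP for 8 of 8 genes, and their summed level was 42.0 to 44.9 in V/SVZ and 125 to 138 in CP. Markers of the oligodendrocyte lineage, cells in which Tubb4a is also known to be expressed, were mixed, with 2 higher in each tissue and 2 not called, and a summed level of 2.08 to 2.44 in V/SVZ and 3.81 to 3.88 in CP. The part of either marker list in these differences was not tested.

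Promoter sequences are shown for the isotypes with the largest difference in each direction, Tuba1c and Tubb2a, and for the neuronal marker Tubb3. Each is the 250 bases before the annotated transcript start, 5′ to 3′ on the strand of the gene, from RefSeq on GRCm38.p6, whose table held 8 of the 10 isotypes. The positions are chr15:99029641-99029890 on the plus strand for Tuba1c, chr13:34078009-34078258 on the minus strand for Tubb2a and chr8:123411303-123411552 on the plus strand for Tubb3. Capitals mark matches on either strand to 4 motifs. They are TATAAA, which is a common core promoter element known as the TATA box, then CCAAT, which is named for its own letters, then GGGCGG, which is the GC box bound by Sp1, and lastly TTTGAA, which is a form of the cell cycle homology region.
Tuba1c: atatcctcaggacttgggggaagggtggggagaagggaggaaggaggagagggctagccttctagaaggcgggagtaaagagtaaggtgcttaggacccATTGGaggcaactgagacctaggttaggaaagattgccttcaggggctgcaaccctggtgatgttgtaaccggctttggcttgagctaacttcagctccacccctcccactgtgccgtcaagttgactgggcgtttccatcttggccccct
Tubb2a: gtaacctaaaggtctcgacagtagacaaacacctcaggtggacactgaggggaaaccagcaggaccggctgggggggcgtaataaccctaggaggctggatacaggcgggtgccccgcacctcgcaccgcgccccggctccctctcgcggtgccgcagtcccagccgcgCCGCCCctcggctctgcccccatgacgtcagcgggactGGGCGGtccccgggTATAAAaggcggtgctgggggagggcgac
Tubb3: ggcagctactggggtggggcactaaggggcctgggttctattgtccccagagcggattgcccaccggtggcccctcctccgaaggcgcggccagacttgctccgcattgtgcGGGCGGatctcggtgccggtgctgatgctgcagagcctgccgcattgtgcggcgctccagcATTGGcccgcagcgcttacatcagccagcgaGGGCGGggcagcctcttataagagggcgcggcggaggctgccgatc
Tuba1c held 1 CCAAT box and no match to the other 3 motifs in this window. Tubb2a held 1 TATA box, whose first base lies 29 bases before the start, and 2 GC boxes, and Tubb3 held 1 CCAAT box and 2 GC boxes. The marked matches do not overlap one another. Of all 32851 promoter windows of this length, 12.4% held a TATA box, 33.8% a CCAAT box, 32.7% a GC box and 16% the TTTGAA motif. The windows of Tuba1c, Tubb2a and Tubb3 were 55.6%, 68.4% and 68.0% G and C, beside a median of 52.4% over all windows. A match is a description of the letters and not of a bound site.

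In measured signal the major alpha-tubulins of the developing brain differed little, and for Tuba1b the direction depended on the probe. Only 0.126% of tested probes were brighter than that of Tuba1a, and how well folds hold at such signals was not tested. Tuba1a, the alpha-tubulin most linked to cortical malformation, read 6.96, 6.97, 7.05 and 7.08 in V/SVZ and 7.39, 7.53, 7.45 and 7.45 in CP. The groups did not overlap, but the fold was small, 1.36-fold higher in CP (difference -0.44 ± 0.05 SE, limma adjusted p = 3.61e-05). Tuba1b, a widely expressed alpha-tubulin, had 2 probes. The probe with the higher signal, A_55_P2154132, read 7.77, 7.70, 7.60 and 7.70 in V/SVZ and 7.16, 7.16, 7.13 and 7.18 in CP. By this probe Tuba1b was 1.45-fold higher in V/SVZ (difference 0.53 ± 0.04 SE, limma adjusted p = 6.87e-06). The other, A_55_P2116496, read 6.91, 6.91, 6.84 and 6.93 in V/SVZ and 7.54, 7.60, 7.53 and 7.56 in CP, and by it the gene was 1.58-fold higher in CP (difference -0.66 ± 0.03 SE, limma adjusted p = 5.09e-07). Both probes separated the tissues without overlap, in opposite directions, and the within-array ratio of the first to the second differed between tissues by 1.19 on the log2 scale (exact permutation test over 70 relabellings, two-sided p = 0.0286, the smallest this design allows, adjusted p = 0.0286 over 2 such probe pairs). With the mean of both probes Tuba1b was not called (-0.06, limma adjusted p = 0.147), and after normexp background correction the second probe was the brighter and the gene was called towards CP (-0.60). No direction can therefore be given for Tuba1b as a gene. Of the 3865 genes with several tested probes, 318 (8.23%) had probes called in opposite directions. The first probe's spot lies in the last of the 85 columns of the array, and there the scanner's correction multiplied the background-subtracted signal by 1.04 to 1.08 on the V/SVZ arrays and by 1.19 to 1.25 on the CP arrays. In the normexp values, which do not use that correction, the probe's difference was 0.80, in the same direction. Its mean unscaled log2 signal of 18.99 in V/SVZ was above that of the brightest spike-in RNA, 18.74, so the spike-ins do not cover the highest signals. On the CP slide the brightest spike-in RNA was at 18.58, and the second Tuba1b probe (18.64) and Tubb5 (18.63) were above it there.

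Tuba4a, an alpha-tubulin whose gene does not encode the terminal tyrosine of the other alpha-tubulins described here, read 5.55, 5.65, 5.58 and 5.73 in V/SVZ and 6.46, 6.51, 6.49 and 6.53 in CP. It was 1.83-fold higher in CP (difference -0.87 ± 0.05 SE, limma adjusted p = 6.66e-07), with no overlap between the tissues. In RefSeq's order of protein-coding genes on GRCm38.p6, Tuba1b, Tuba1a and Tuba1c follow one another. Neighbours on the chromosome thus included both Tuba1a, 1.36-fold higher in CP, and Tuba1c, 43.6-fold higher in V/SVZ.

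Among the remaining beta-tubulins, Tubb2b and Tubb5 were modestly higher in CP and Tubb6 modestly higher in V/SVZ. Tubb2b, the neighbour of Tubb2a and a beta-tubulin needed for neuronal migration, had 2 probes. The first, A_55_P2034864, read 6.63, 6.77, 6.89 and 6.84 in V/SVZ and 7.06, 7.17, 7.10 and 7.10 in CP, and the second, A_51_P514256, read 5.02, 5.09, 4.97 and 4.99 in V/SVZ and 5.79, 5.83, 5.78 and 5.77 in CP. Both put Tubb2b higher in CP without overlap, but the first gave 1.25-fold (difference -0.32 ± 0.06 SE, limma adjusted p = 0.00131) and the second 1.71-fold (-0.77 ± 0.04 SE, limma adjusted p = 3.17e-07). The ratio of these probes also differed between tissues, by 0.45 on the log2 scale (exact permutation p = 0.0286, adjusted p = 0.0286 over 2 probe pairs). The scanner's spatial correction multiplied the first probe by 1.09 to 1.13 on the V/SVZ arrays and 0.986 to 1.01 on the CP arrays, and in the normexp values the gap between the probes was 0.25. Tubb5, a widely expressed beta-tubulin, read 6.93, 6.96, 6.80 and 7 in V/SVZ and 7.52, 7.53, 7.56 and 7.56 in CP. It was 1.53-fold higher in CP (difference -0.62 ± 0.05 SE, limma adjusted p = 5.84e-06), so its direction was that of Tubb3 and not that of Tuba1c. Tubb6, a beta-tubulin found mostly outside neurons, read 0.17, 0.12, 0.17 and 0.26 in V/SVZ and -0.54, -0.55, -0.29 and -0.29 in CP. Its lowest V/SVZ array was above its highest CP array, and it was 1.51-fold higher in V/SVZ (difference 0.60 ± 0.07 SE, limma adjusted p = 0.000122). Endothelial markers had a summed level of 7.48 to 8.29 in V/SVZ and 6.36 to 7.08 in CP, with 2 of 8 higher in V/SVZ and none higher in CP. Microglia markers had 8.41 to 11.8 in V/SVZ and 2.66 to 3.73 in CP (6 of 7 higher in V/SVZ), and erythroid markers 146 to 187 and 109 to 123 (5 of 5 higher in V/SVZ). Meningeal and fibroblast markers were at 0.676 to 1.07 and 0.767 to 0.921, with 1 higher in V/SVZ and 2 in CP, and pericyte markers at 1.65 to 2.08 and 1.35 to 1.73, with 2 of 5 higher in V/SVZ. The part of these lists in the Tubb6 difference was not tested.

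**Figure D2:**
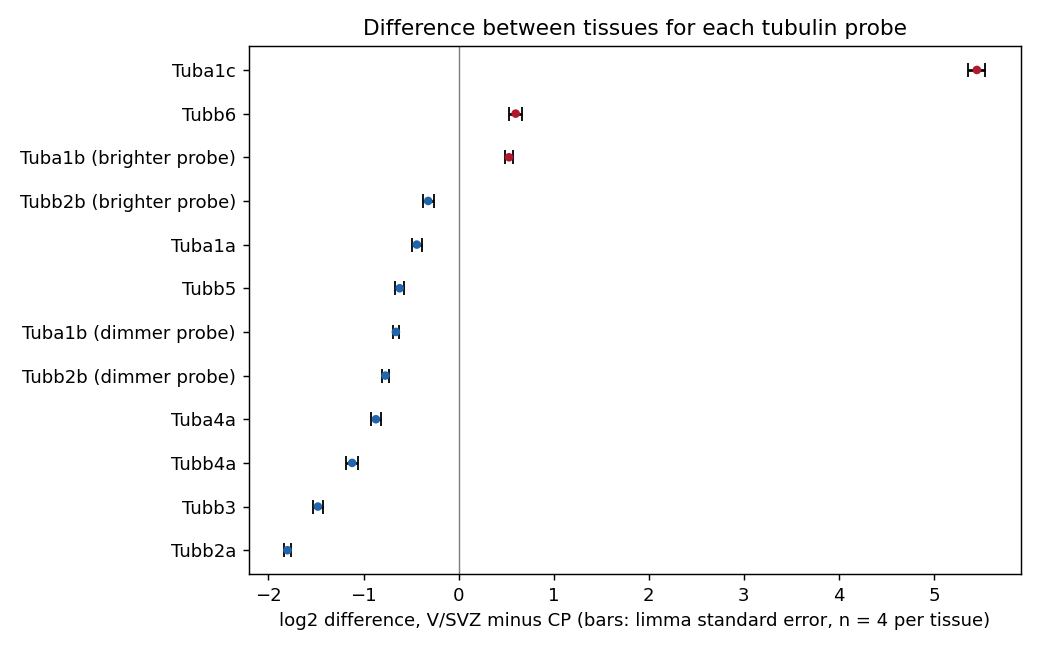
Log2 difference, V/SVZ minus CP (horizontal axis), for the 12 tubulin probes in order of size, with limma's standard error as bars (n = 4 arrays per tissue), red where higher in V/SVZ and blue where higher in CP. The probes run from -1.80 for Tubb2a to 5.45 for Tuba1c; the Tuba1b probes lie on opposite sides of 0, at 0.53 and -0.66.

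Whether isotypes differed from one another in their tissue difference was asked of all 45 pairs, using the ratio of 2 isotypes on the same array, which does not depend on the scaling between arrays. In 43 of the 45 pairs the ratio differed between the tissues in an exact permutation test (two-sided p = 0.0286 each, the smallest that 70 relabellings allow, adjusted p = 0.0299 over 45 pairs). This test does not use the replicate numbers: paired by number, the 16 sign flips of 4 pairs allow no p under 0.125, so no pair could be called, and in 43 of the 45 all 4 numbered pairs of arrays had a difference of the same sign. The count was not made for pairs of other genes, so 43 of 45 cannot be called particular to tubulins. Among all tested probes taken singly, 75.5% separated the tissues without overlap. The 43 differences among the isotype pairs ran from 0.18 to 7.24 on the log2 scale in size. The largest was between Tuba1c and Tubb2a, the ends of the order. The smallest was between Tuba1a and Tubb5. A ratio on 1 array does not remove the scanner's spatial correction. For Tuba1a its factor was 1.1 to 1.14 in V/SVZ and 1 to 1.03 in CP. For Tubb5 it was 0.888 to 0.933 and 0.907 to 0.92. In the normexp values the tissue differences of Tuba1a and Tubb5 were -0.57 and -0.59. Tubb2a and Tubb2b, neighbouring genes, differed from each other by -1.47: their ratio was -1.82 ± 0.13 (SD, n = 4) in V/SVZ and -0.35 ± 0.03 (SD, n = 4) in CP. Tubb2a and Tubb3 lay closer, with a difference of -0.32 between them. For Tubb3 against Tubb5 it was -0.86, Tubb3 having the larger shift towards CP. The pairs not called were Tuba1a with Tubb2b (-0.12, ratio 0.23 ± 0.07 SD in V/SVZ and 0.35 ± 0.01 SD in CP, n = 4 each, exact permutation adjusted p = 0.0584) and Tuba1b with Tubb6 (-0.06, ratio 7.51 ± 0.09 SD and 7.58 ± 0.15 SD, n = 4 each, exact permutation adjusted p = 0.571). These p-values do not show that the isotypes of such a pair behave alike. Pairs with Tuba1b or Tubb2b depended on the probe. With the other Tuba1b probe, 8 of its 9 pairs were again called but 3 turned sign: against Tubb5 the difference went from 1.15 to -0.04 and was not called (exact permutation adjusted p = 0.257), and against Tubb6 it was -1.25 and was called (exact permutation adjusted p = 0.0299). With the other Tubb2b probe, 8 of 9 were called and 2 turned sign: Tuba1a against Tubb2b became 0.33 and was called (exact permutation adjusted p = 0.0299), and Tuba4a against Tubb2b became -0.10 and was not (exact permutation adjusted p = 0.117). Probe sequences were not analysed here, so which of these similar transcripts each probe binds is uncertain.

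**Figure D3:**
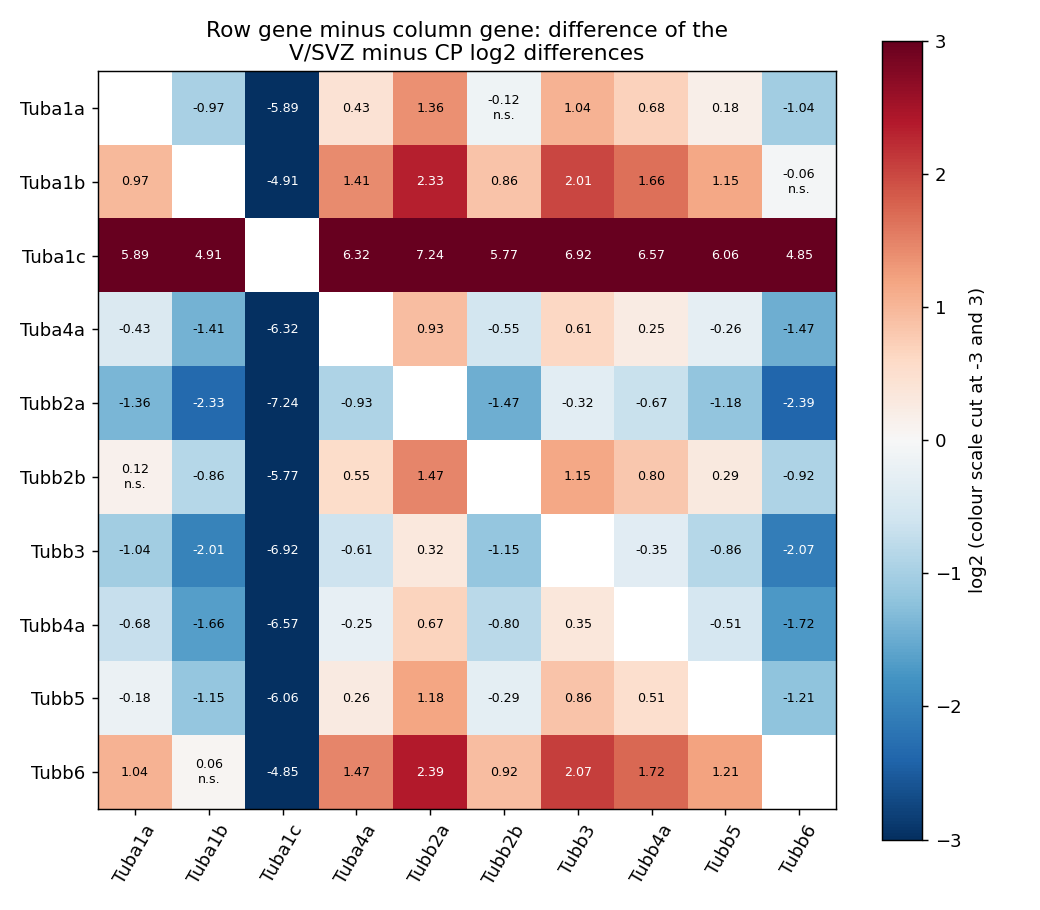
Difference between the tissue differences (V/SVZ minus CP, log2) of the gene in each row and the gene in each column, 1 probe per gene, with colours cut at -3 and 3 and n.s. where the adjusted exact permutation p is not under 0.05. The Tuba1c row is positive throughout, from 4.85 against Tubb6 to 7.24 against Tubb2a, and 2 pairs are not called.

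Other tubulins and genes that act on tubulin were taken from 4 lists. Of 18 other tubulins and genes of the gamma-tubulin ring complex, which nucleates microtubules, 16 were tested, and 8 were higher in V/SVZ, 3 higher in CP and 5 not called, with a median difference of 0.18. Nedd1, which anchors the ring complex to centrosomes and spindles, was 7.63-fold higher in V/SVZ, the epsilon-tubulin gene Tube1, of centrioles, 1.53-fold, and the ring complex subunit gene Tubgcp3 1.39-fold. The 2 gamma-tubulin genes differed in opposite directions: Tubg1 was 1.22-fold higher in V/SVZ, and Tubg2, the form known from brain, 7.17-fold higher in CP (difference -2.84 ± 0.16 SE, limma adjusted p = 8.00e-07). Tubg2 read -0.64, -0.67, 0.01 and -0.74 in V/SVZ and 2.32, 2.24, 2.42 and 2.33 in CP, so V/SVZ array 3 was the highest of its tissue and still far below CP. Tuba3a, an alpha-tubulin best known from testis, was 18.6-fold higher in CP, with a mean of -5.76 in V/SVZ, where 3 of 4 arrays were well above background, and -1.54 in CP. Its second probe gave 15.7-fold. Tubb1, the beta-tubulin of platelets, was 3.82-fold higher in CP. Of the other alpha- and beta-tubulins of this list, Tubb4b was 1.17-fold higher in V/SVZ (limma adjusted p = 0.00749) and Tuba3b was not called. Tuba8 and Tubal3 did not pass the filter on dim probes and were not tested. The share called, 68.8%, was below that of all genes.

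Of 21 tubulin folding genes, all tested, 10 were higher in CP, 4 higher in V/SVZ and 7 not called, and no difference reached 2-fold (median -0.10). The called share, 66.7%, was below the 79.5% of all genes, of which 44.6% were higher in CP. The folding cofactors Tbcd (1.5-fold), Tbce (1.36-fold) and Tbcb (1.35-fold), which assemble or take apart the alpha-beta dimer, were higher in CP. Tbcel, a relative of Tbce that destabilises tubulin, was 1.43-fold, the prefoldin subunit gene Vbp1 1.22-fold and the chaperonin subunit gene Cct8 1.18-fold higher in V/SVZ. With arrays scaled on their medians the count higher in CP was 4 in place of 10.

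Of 28 listed genes of enzymes that modify the tubulin protein, and of their partners, 27 were on the array and 21 tested. Among those tested, 14 were higher in CP, 4 higher in V/SVZ and 3 not called, with a median of -0.67. The called share was 85.7%, near the 79.5% of all genes, of which 44.6% were higher in CP. Agtpbp1, a deglutamylase whose loss causes Purkinje cell degeneration, was 6.64-fold higher in CP, and its other probes gave 2.98-fold and 6.19-fold. Ttll2, a member of the tubulin tyrosine ligase-like family, was 3.64-fold and Vash2, a detyrosinating enzyme, 3.22-fold higher in CP. The tyrosine ligase gene Ttl was 2.30-fold higher in CP, and Vash1 and Svbp, the partner of the vasohibins, were 1.94-fold and 2.06-fold higher there, so genes of both removal and return of tyrosine were higher in CP. The 4 genes higher in V/SVZ were Atat1, the alpha-tubulin acetyltransferase (1.85-fold, although another of its probes was called towards CP, at -1.84), the glutamylase genes Ttll4 (1.76-fold) and Ttll5 (1.15-fold), and Agbl4, a deglutamylase (at least 3.34-fold, as it was not well above background on any CP array). The tubulin deacetylase gene Hdac6 was not called (difference -0.08, limma adjusted p = 0.0700), although a second probe was, at -0.15. Of 2 genes of tubulin mRNA autoregulation, by which excess tubulin triggers decay of its own messages, Scaper was 2.47-fold higher in CP and Ttc5, the factor that recognises nascent tubulin, was not called (0.01 ± 0.08 SE, limma adjusted p = 0.911).

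**Figure D4:**
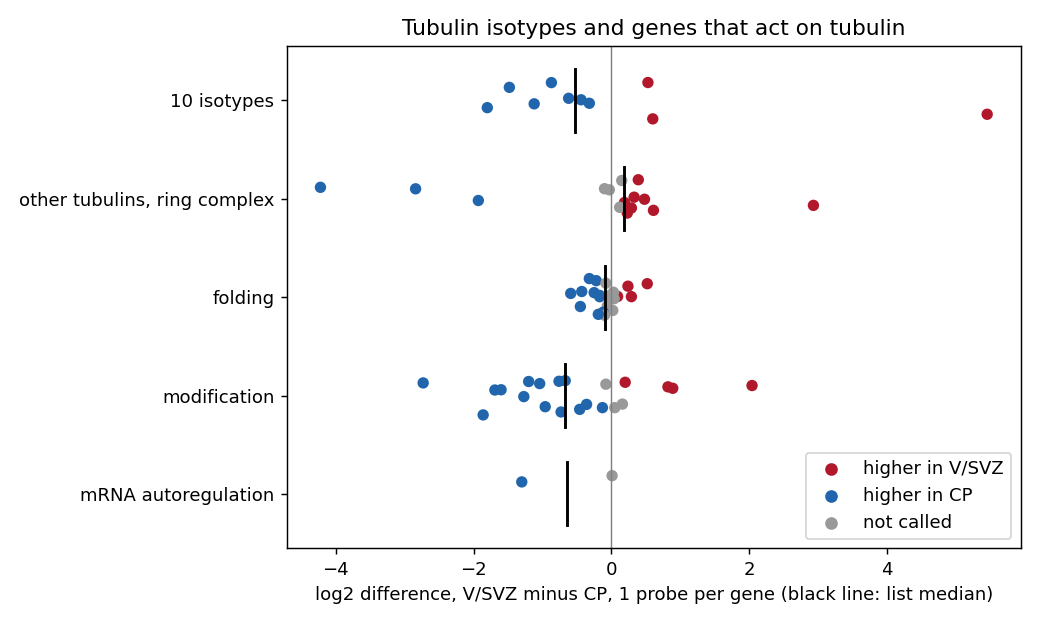
Log2 difference, V/SVZ minus CP (horizontal axis), for the 10 isotypes and the 4 lists of other tubulins and genes that act on tubulin, 1 point per tested gene by its probe with the highest mean signal, red where called higher in V/SVZ, blue where called higher in CP and grey where not called, with a black line at each list median. Folding genes lie close to 0, modification genes have a median of -0.67, and Tuba1c stands apart at 5.45.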

How the data were processed

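Total RNA (100 ng per sample) was amplified and Cy3-labelled for 1-colour Agilent arrays, according to the labels. Per the file headers, the deposited intensity values came from Agilent Feature Extraction, with a processed signal already corrected for background and for spatial trend, and the array design used build mm9. The log2 values of the authors' deposited table had column medians of -0.03 to 0.02 and were tried, turned in direction, as an alternative, and how they were scaled, centred and filtered is unknown. Spots marked as outliers were left out (142 to 258 gene spots per array), no gene spot was saturated, and 23860 of 39429 gene probes were tested: those that 1 tissue or both had well above background on every array, given 3 or more values per tissue. Of these 39429 probes, 26761 had a symbol through RefSeq accessions (GRCm38.p6). Between 58.4% and 62.9% of probes were well above background per array, and array number limits the precision.

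All tested probes were fitted together with limma 3.58.1 under R 4.3.3 (lmFit, then eBayes), tissue being the only term. For a gene with several tested probes, the one of highest mean signal stood for it. Alternatives changed the scaling (median, quantile, spike-in), background correction (normexp, offset 50, on the median signals), filter, probe choice, unit of the fit, variance model, array weights, the replicate block, the value table and each array. Deviations of same-numbered V/SVZ and CP arrays correlated at 0.12 to 0.34 over all tested probes in all 4 pairs, although V/SVZ array 3 correlated best with CP array 2. Pairing by number therefore entered as an alternative, in the replicate block and the sign flips. The main fit and the exact permutation test did not use the numbers. Named were all isotypes, the 3 called genes with the largest difference in each direction of each list that were well above background on all 8 arrays, all genes of a list with 5 or fewer tested, the 3 nearest patterns to the isotypes with the largest difference in each direction, and Pax6, Eomes, Sox2, Bcl11b, Tbr1 and Map2 as tissue markers. One of the genes nearest to Tubb2a is not reported here. Tubg1, Tuba3a, Tuba3b, Tubb1, Tubb4b, Tuba8, Tubal3, Agbl4, Ttl, Vash1, Svbp, Hdac6 and the genes named in the closing section were picked with their values in view. The isotypes and lists were chosen with earlier results of these data known. The fit was tested on simulated data (23808 probes): it recovered 58.0% of log2 differences of 0.5, 88.0% of 1 and 96.0% of 2. False positives made up 3.07% of everything called in that simulation. Only a small share of the simulated probes carried a difference, while 79.7% of tested probes were called on the real arrays. The Benjamini-Hochberg adjustment was therefore stricter in the simulation, and these shares need not carry over. Whether they hold for the real arrays was not tested.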

Additional observations from a re-analysis of the deposited data

How the results depend on the processing

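All 12 tubulin probes kept their direction and their call in each of the 18 alternatives run for a probe, the replicate block included, which changed no call of an isotype. The authors' table among them had been turned by matching its columns to the scanner arrays, so its directions are no independent check. Over these alternatives Tuba1c ran from 5.28 to 5.53, Tubb2a from -1.87 to -1.71, Tubb3 from -1.55 to -1.36, the first Tuba1b probe from 0.46 to 0.80 and the first Tubb2b probe from -0.47 to -0.23 (largest limma adjusted p = 0.0152). The gene-level call of Tuba1b was the exception, as given above: none with the mean of its probes, and towards CP after normexp. Of the recomputed values, 502 kept direction and call (or, for a count, stayed within 1.5 times) and 3 did not: with median scaling 4 folding genes were higher in CP, not 10, and with spike-in scaling 5 other tubulins and ring complex genes were higher in V/SVZ, not 8, and with a replicate block by sign flips, whose smallest p is 0.125, 0 of the 45 pairs of isotypes could be called, not 43. The pairs of isotypes that differed numbered 42 under quantile normalization, 41 under normexp and 40 to 43 with each array left out. The other probe of Tuba1b or of Tubb2b gave 43 each time, with the changes given above; these and the sign flips were chosen after seeing the data. In the authors' deposited table, turned, the Tuba1c difference was 5.45 and the Tubb2a difference -1.79. The median of all probes was -0.09 in the main scaling, 0.00 with median, -0.04 with quantile and -0.16 with spike-in scaling. Signals above the brightest spike-in are not covered by any control.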

Other observations

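Some genes that act on tubulin had probes that disagreed as those of Tuba1b did. Atat1 had 3 tested probes, with differences of 0.89 ± 0.05 SE, -1.84 ± 0.08 SE and -0.14 ± 0.06 SE, of which the first was called towards V/SVZ, the second towards CP and the third not called (limma adjusted p = 0.0505). Tpgs2, a subunit of a tubulin polyglutamylase complex, had probes at -0.73 (called towards CP), 0.11 (called towards V/SVZ) and -0.12 (not called). The 3 Vash1 probes agreed in direction, at -0.96, -1.17 and -0.78.

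Mzt1, a small protein of the gamma-tubulin ring complex, varied more with the replicate number than with the tissue. It read -0.13, -0.66, -1.67 and -1.85 on V/SVZ arrays 1 to 4 and 0.23, -0.57, -1.78 and -1.80 on CP arrays 1 to 4, so same-numbered arrays of both tissues were close to each other. Its tissue difference was -0.10 ± 0.57 SE (limma adjusted p = 0.883). The 12 tubulin isotype probes showed no such spread, with SDs within a tissue of 0.02 to 0.18 (n = 4).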
